A study of Mus musculus with 4 samples.

Results

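The G2 and M phase genes are a list of 36 mouse genes whose products carry a cell from the end of DNA replication through mitosis to its division. They were taken by symbol from the gene tables of 4 single-cell RNA libraries, and all 36 were found among 32285 genes. The libraries held live T cells from the lymph nodes that drain MC38-OVA tumours, a colon carcinoma line that makes ovalbumin. All mice carried these tumours. In KO-DOX and KO-CTRL the label is PD-L1 knockout, and the design text places the loss of Cd274, the gene of PD-L1, in dendritic cells; WT-DOX and WT-CTRL have the control genotype. DOX mice received doxorubicin, which poisons topoisomerase II and damages DNA, and CTRL mice the control treatment. The sources used here do not give the Cre driver, the dose, the age of the mice or how many mice stand behind a library. Each group is 1 library, so condition and library cannot be told apart, no test between groups was possible, and every interval covers counting error only.

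These genes are switched on late in the cell cycle. Cyclin A and cyclin B activate the kinase Cdk1, which drives entry into mitosis, and the anaphase-promoting complex then has the cyclins destroyed so that the cell can leave it. Most T cells of a lymph node are resting and do not transcribe these genes, while antigen drives a few into rapid division. Over a whole population, then, the level of such a gene depends both on how many cells divide and on how much each dividing cell holds, and the values below keep the 2 apart.

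Promoter sequence was looked at as a feature that did not enter the choice of the list. RefSeq promoters on GRCm38.p6 were given for 31 of the 36 genes, as 33 promoters of 250 bases before to 50 bases after the start. None was matched for Ccna2, Tpx2, Aurkb, Kif20a and Smc4. The letters TTTGAA are the core of the cell cycle homology region, an element known from late cell cycle promoters, and CCAAT is the box that NF-Y binds. Searched on both strands, with matches that share a base counted under both motifs, TTTGAA was present in 26 of the 33 promoters (78.8%), against 17.9% of all 32851 promoters of that length. CCAAT was present in 28 (84.8%), against 37.4% of all promoters, and both together in 24 (72.7%), against 6.95%. In the 250 bases before the start alone, TTTGAA was in 15 promoters (45.5%, against 16.0% of all), CCAAT in 28 (84.8%, against 33.8%) and both in 14 (42.4%, against 5.55%). Over the full 300 bases, at least 2 CCAAT letters stood in 57.6%, against 11.7% of all promoters. These are matches of letters and not shown to be binding sites. The 250 bases before the start of 4 members are printed because they show both motifs: Mki67 at chr7:135716380-135716629, Cdk1 at chr10:69352913-69353162 and Cdc20 at chr4:118437344-118437593, all on the minus strand, and Hmgb2 at chr8:57511593-57511842 on the plus strand. Each is read 5′ to 3′ along the gene, and capitals mark TTTGAA or CCAAT on either strand (TTCAAA and ATTGG where the motif lies on the other strand).
Mki67: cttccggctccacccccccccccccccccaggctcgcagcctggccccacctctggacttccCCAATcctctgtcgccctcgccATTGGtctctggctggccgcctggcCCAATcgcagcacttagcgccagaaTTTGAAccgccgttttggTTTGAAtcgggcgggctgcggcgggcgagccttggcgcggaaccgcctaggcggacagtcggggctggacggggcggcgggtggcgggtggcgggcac
Cdk1: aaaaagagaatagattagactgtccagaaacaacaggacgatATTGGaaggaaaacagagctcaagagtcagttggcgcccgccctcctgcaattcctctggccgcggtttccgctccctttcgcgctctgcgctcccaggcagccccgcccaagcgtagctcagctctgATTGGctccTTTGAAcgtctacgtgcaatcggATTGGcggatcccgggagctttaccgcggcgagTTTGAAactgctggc
Cdc20: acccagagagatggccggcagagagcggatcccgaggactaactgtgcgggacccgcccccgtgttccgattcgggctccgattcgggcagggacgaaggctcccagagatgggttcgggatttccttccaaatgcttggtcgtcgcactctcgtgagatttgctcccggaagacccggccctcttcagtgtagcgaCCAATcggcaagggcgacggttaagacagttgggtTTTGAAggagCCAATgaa
Hmgb2: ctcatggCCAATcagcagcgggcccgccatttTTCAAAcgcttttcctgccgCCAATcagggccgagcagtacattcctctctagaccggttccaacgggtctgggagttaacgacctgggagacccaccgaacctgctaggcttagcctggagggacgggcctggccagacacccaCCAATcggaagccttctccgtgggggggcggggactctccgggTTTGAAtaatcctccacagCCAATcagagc
Within these bases Mki67 and Cdk1 each held 2 TTTGAA and 3 CCAAT, Cdc20 held 1 and 2, and Hmgb2 held 2 and 4.

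The libraries were of like depth, with 10372 to 12959 barcodes and 37754389 to 47081849 unique molecular identifiers (UMIs, each 1 counted transcript). T cells were kept by their markers, which left 9891 in KO-DOX, 12439 in KO-CTRL, 11806 in WT-DOX and 12223 in WT-CTRL, with median depths of 2991, 3030, 2991 and 3079 UMIs in that order. Between 175 and 271 barcodes were shared by a pair of libraries, and 1 of them was Mki67-positive in both, in WT-DOX and WT-CTRL. Cd274 stood at 82.9 CPM (UMIs of the gene per 1000000 UMIs of the T cells) in KO-DOX, 85.2 in KO-CTRL, 65.8 in WT-DOX and 67.4 in WT-CTRL. Since the deletion is placed in dendritic cells, this checks no label. In Mki67-positive cells the 6 T cell markers summed to 2472 to 2631 CPM, and Ms4a1, Csf1r and Siglech, which mark B, myeloid and plasmacytoid dendritic cells, were at 0 in all 4 libraries. The T cell rule itself limits these 3 genes, since it keeps cells with under 2 UMIs of each of the B and myeloid sets. Of 2 natural killer genes, which the rule did not use, Ncr1 was at 0 in all 4 libraries and Klrb1c stood at 3.02 CPM in KO-DOX, 0.677 in KO-CTRL, 1.20 in WT-DOX and 2.14 in WT-CTRL, in 12, 4, 2 and 8 cells. Cd79a, Cd79b, Ms4a1 and Jchain, markers of B and plasma cells, together summed there to 5.64 CPM in KO-DOX, 4.06 in KO-CTRL, 7.22 in WT-DOX and 5.25 in WT-CTRL. The 8 myeloid and dendritic markers summed there to 461 CPM in KO-DOX, 229 in KO-CTRL, 523 in WT-DOX and 319 in WT-CTRL. Of this, Cd74 made up 418, 217, 477 and 287 CPM, and H2-Aa 41.1, 11.5, 44.5 and 27.6 CPM. Up to 94 H2-Aa UMIs lay in 1 cell of KO-DOX. Over all T cells the same 8 markers summed to less, at 155, 91.8, 96.3 and 86.9 CPM in that order. The B and plasma markers summed to more over all T cells, at 7.04, 6.41, 8.74 and 7.89 CPM. In Mki67-positive cells both sums were higher in the DOX libraries than in the CTRL libraries, and their part in the results was not tested.

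A smaller share of T cells carried Mki67 in WT-DOX than in WT-CTRL, and a larger one in KO-DOX than in KO-CTRL. Mki67 encodes Ki-67, a protein that coats chromosomes and is present in cycling cells and not in resting ones. At least 1 Mki67 UMI was found in 383 of 9891 T cells of KO-DOX (3.87%, Clopper-Pearson 95% interval 3.50 to 4.27), 400 of 12439 of KO-CTRL (3.22%, 2.91 to 3.54), 237 of 11806 of WT-DOX (2.01%, 1.76 to 2.28) and 391 of 12223 of WT-CTRL (3.20%, 2.89 to 3.53). WT-DOX lay apart from the other 3 libraries, while KO-CTRL and WT-CTRL overlapped almost fully. The share in WT-DOX was 0.628 times that in WT-CTRL (95% interval 0.535 to 0.736), and the share in KO-DOX was 1.20 times that in KO-CTRL (1.05 to 1.38). KO-DOX held 1.93 times the share of WT-DOX (1.64 to 2.26), and KO-CTRL held 1.01 times that of WT-CTRL (0.876 to 1.15). Counted at 2 or more Mki67 UMIs, the ratio of KO-DOX to KO-CTRL was 1.07 (0.899 to 1.27), and counted as cells with Top2a it was 1.06 (0.954 to 1.18), intervals that include 1. The ratio of WT-DOX to WT-CTRL was 0.721 (0.589 to 0.883) and 0.777 (0.697 to 0.867) by the same counts, below 1 in both. With every cell thinned to 1500 UMIs and the shallower cells left out (810, 1144, 986 and 1108 cells in KO-DOX, KO-CTRL, WT-DOX and WT-CTRL), the shares were 2.11%, 1.73%, 0.980% and 1.51%. The ratios were then 1.22 for KO-DOX against KO-CTRL, 0.648 for WT-DOX against WT-CTRL, 1.14 for KO-CTRL against WT-CTRL and 2.16 for KO-DOX against WT-DOX. Thinned to 2500 UMIs, the share was 3.28% in KO-DOX (2.87 to 3.74) and 2.77% in KO-CTRL (2.43 to 3.14), intervals that overlap. In WT-DOX it was 1.63% (1.36 to 1.93) and in WT-CTRL 2.60% (2.27 to 2.97), intervals that do not.

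**Figure D1:**
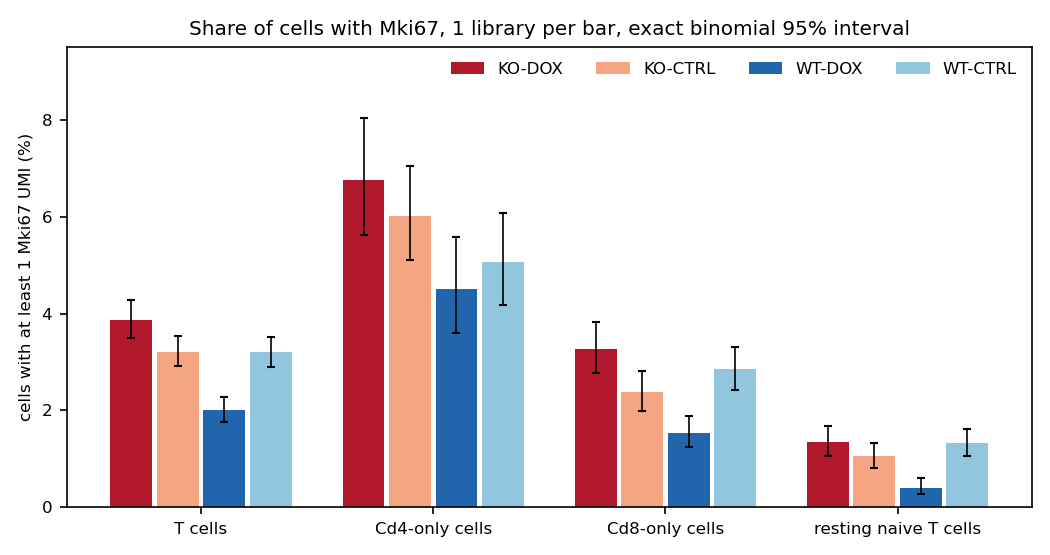
Share of cells with at least 1 Mki67 UMI (y axis, percent) in all T cells and in Cd4-only, Cd8-only and resting naive T cells (x axis), with 1 bar per library and exact binomial 95% intervals. WT-DOX is the lowest bar of each set, at 2.01% of all T cells against 3.20% in WT-CTRL.

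Resting naive T cells, in which little Mki67 is expected, also differed between libraries. These cells, with Ccr7 and Lef1 and no Cd44 (a gate set after the data were seen), carried Mki67 in 1.34% of KO-DOX, 1.05% of KO-CTRL, 0.408% of WT-DOX and 1.32% of WT-CTRL, at median depths of 3174, 3231, 3206 and 3282 UMIs. The share was lowest in WT-DOX here as well, and each naive share lay below that of all T cells of its library. Of the naive cells with Mki67, 38 of 74 in KO-DOX and 36 of 69 in KO-CTRL had 2 or more Mki67 UMIs. In WT-DOX it was 10 of 26 and in WT-CTRL 38 of 91. The gate thus held cells with more than 1 Mki67 UMI, and these shares cannot be read as background alone. The part of the naive-gated cells in the ratios was not tested. Cells with exactly 1 Mki67 UMI made up 1.56% of T cells in KO-DOX, 1.05% in KO-CTRL, 0.686% in WT-DOX and 1.37% in WT-CTRL. They held a median of only 4 to 5 UMIs of the other 35 genes, against 2 in T cells without Mki67. Cells with 5 or more, where a median of 188.5 to 226.5 UMIs of the other 35 genes was present, made up 1.48% in KO-DOX, 1.47% in KO-CTRL, 0.796% in WT-DOX and 1.28% in WT-CTRL. Among these, WT-DOX held 0.624 times the share of WT-CTRL (0.484 to 0.805) and KO-DOX held 1.003 times that of KO-CTRL (0.809 to 1.25). At exactly 1 UMI the ratios were 1.48 for KO-DOX against KO-CTRL (1.17 to 1.86) and 0.502 for WT-DOX against WT-CTRL (0.386 to 0.654). Cells with 2 to 4 made up 0.839% in KO-DOX, 0.691% in KO-CTRL, 0.525% in WT-DOX and 0.556% in WT-CTRL. They held a median of 36 to 67 UMIs of the other 35 genes. There the ratios were 1.21 for KO-DOX against KO-CTRL (0.899 to 1.64) and 0.944 for WT-DOX against WT-CTRL (0.670 to 1.33), and both intervals included 1. The interval for KO thus left out 1 in the class of 1 UMI and in no other, while that for WT left it out in the classes of 1 and of 5 or more.

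**Figure D2:**
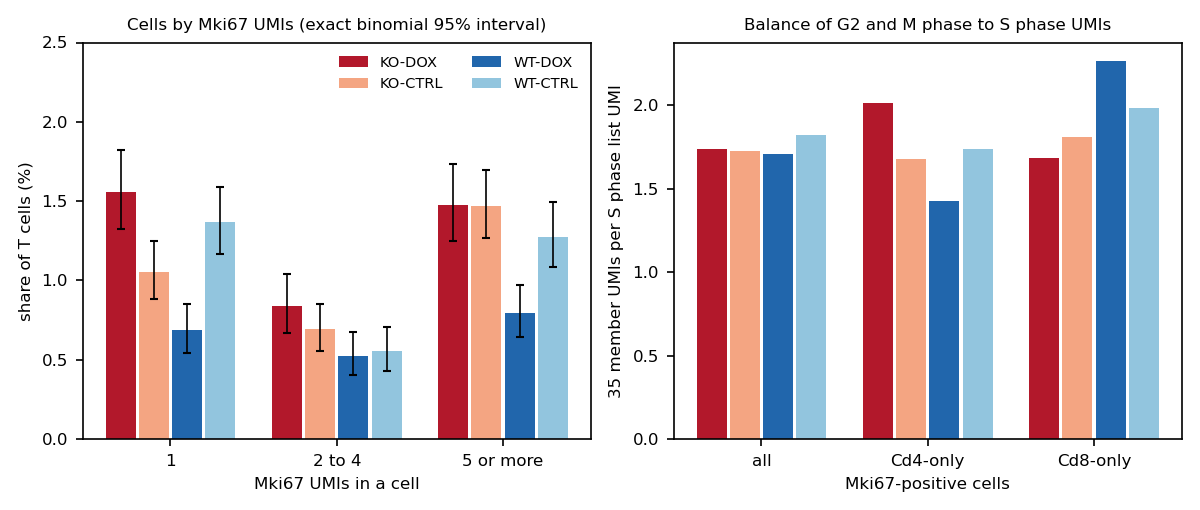
Left, share of T cells (y axis, percent) by the number of Mki67 UMIs in the cell (x axis), with exact binomial 95% intervals; right, UMIs of 35 members per UMI of the S phase list (y axis) in all, Cd4-only and Cd8-only Mki67-positive cells, with no interval. At 5 or more UMIs the KO-DOX and KO-CTRL bars stand level, at 1.48% and 1.47%, and over all Mki67-positive cells the ratios lie between 1.71 and 1.82.

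Over all T cells, 35 members averaged 5 CPM or more in WT-DOX and WT-CTRL. Of these, 23 were lower in WT-DOX by 0.32 log2 units or more and 0 were higher, where 3.46% of all 9029 genes at that level were lower and 0.676% higher by as much. Kif2c was under that level. The log2 fold is taken on CPM plus 1; its median was -0.48 over the members and -0.02 over all genes. KO-DOX against KO-CTRL gave none of 36 members in either direction, with 0.786% of genes higher and 0.985% lower, and a median of 0.05. KO-CTRL against WT-CTRL also gave none of 36, with 1.49% of genes higher and 0.774% lower, and a median of 0.14. In KO-DOX against WT-DOX 32 of 35 members were higher by that size, where 4.29% of all genes were, and the median was 0.66. These comparisons share libraries. WT-DOX held the lowest of the 4 levels for 35 of the 36 members, and KO-DOX the highest for 26.

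**Figure D3:**
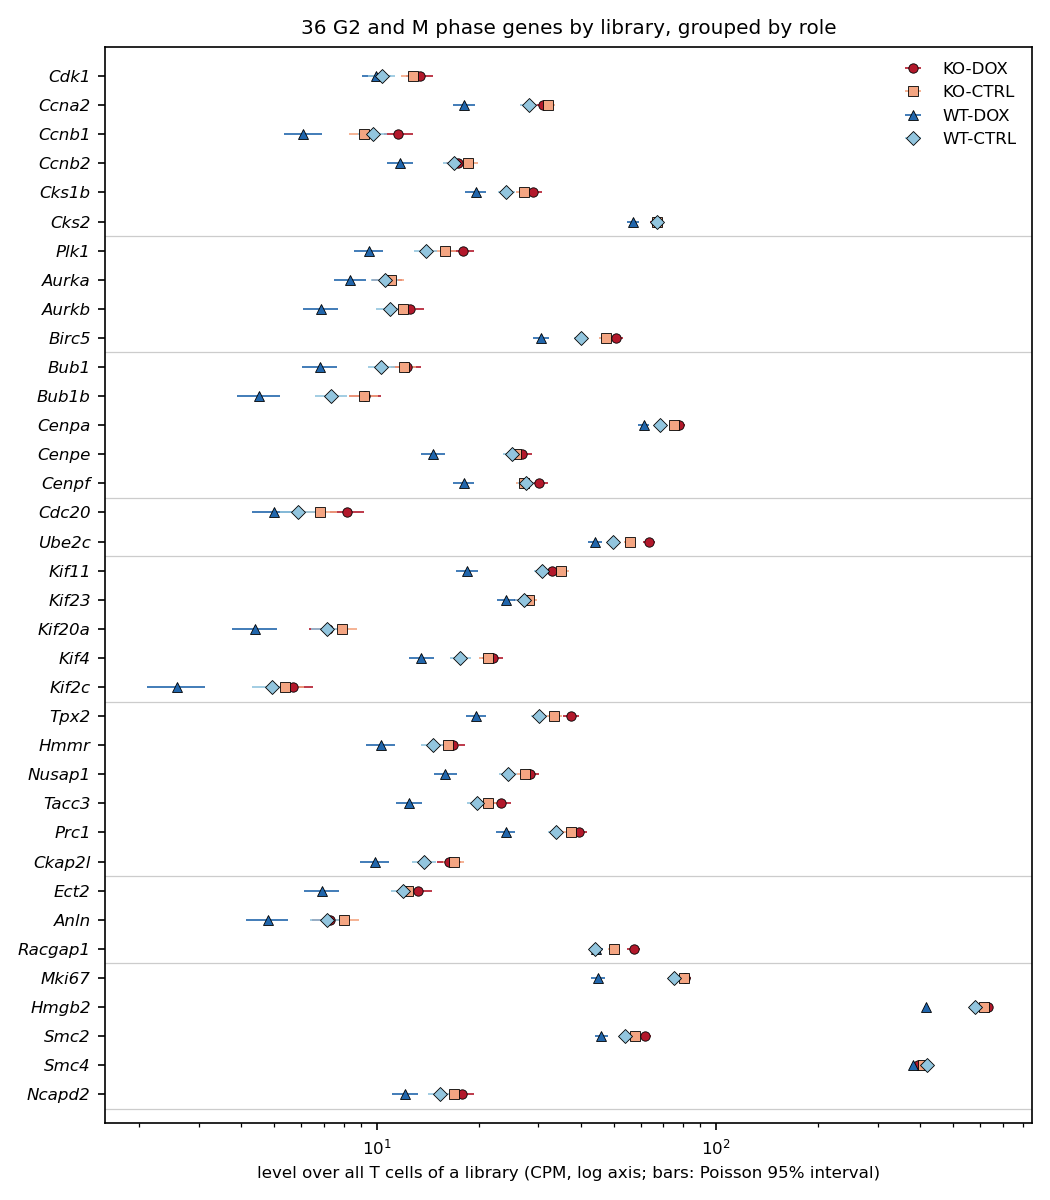
Level of each of the 36 genes over all T cells of a library (x axis, CPM on a log axis, bars are Poisson 95% intervals), by gene and grouped by role (y axis). The WT-DOX triangle lies left of the other 3 symbols in nearly every row, as for Mki67 at 45.0 CPM against 74.98 to 81.1 CPM, and Racgap1 is the exception.

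The cyclins and their kinase differed among themselves. Ccna2, cyclin A2, stood at 31.0 CPM in KO-DOX, 32.0 in KO-CTRL, 18.1 in WT-DOX and 28.1 in WT-CTRL, a log2 fold of -0.60 for WT-DOX against WT-CTRL. Ccnb1, cyclin B1, stood at 11.6 CPM in KO-DOX, 9.19 in KO-CTRL, 6.08 in WT-DOX and 9.75 in WT-CTRL, with folds of 0.31 in KO and -0.60 in WT for doxorubicin against control. It had the highest fold of any member in KO-DOX against KO-CTRL, just inside the size of 0.32. Ccnb2, cyclin B2, had a fold of -0.49 in WT and -0.09 in KO. Cdk1 itself stood at 13.4 CPM in KO-DOX, 12.8 in KO-CTRL, 9.998 in WT-DOX and 10.4 in WT-CTRL. Its WT fold of -0.05 lay within counting error, the log2 CPM ratio having a 95% interval of -0.25 to 0.15. The Cdk subunits Cks1b (-0.29) and Cks2 (-0.23) were nearer to 0 in WT than the 3 cyclins.

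Among the mitotic kinases, Plk1, which promotes centrosome maturation and mitotic entry, stood at 17.9 CPM in KO-DOX, 15.9 in KO-CTRL, 9.48 in WT-DOX and 14.0 in WT-CTRL. Aurkb, the kinase of the chromosomal passenger complex that corrects faulty spindle attachment, stood at 12.6 CPM in KO-DOX, 12.0 in KO-CTRL, 6.85 in WT-DOX and 10.9 in WT-CTRL. Both WT-DOX levels were the lowest of their gene, with folds of -0.51 and -0.60 against WT-CTRL. Birc5, survivin of the same complex, had a WT fold of -0.38, and Aurka, the spindle pole kinase, -0.31.

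The checkpoint and centromere genes had the lowest median fold of the 8 role groups in WT-DOX against WT-CTRL, at -0.58 over 5 genes. Cenpe, a kinesin that moves chromosomes to the spindle equator, stood at 26.9 CPM in KO-DOX, 25.8 in KO-CTRL, 14.7 in WT-DOX and 25.1 in WT-CTRL. Its WT fold of -0.73 was the lowest of any member. Bub1 and Bub1b, kinase and pseudokinase of the spindle checkpoint, had WT folds of -0.54 and -0.60, and Cenpf, of the outer kinetochore, -0.58. Cenpa, the histone variant that marks centromeres, was at -0.16.

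The anaphase genes lay at the other end, with a median of -0.19 for WT-DOX against WT-CTRL. Ube2c, the ubiquitin-conjugating enzyme of the anaphase-promoting complex, stood at 63.7 CPM in KO-DOX, 55.7 in KO-CTRL, 44.0 in WT-DOX and 49.7 in WT-CTRL. Cdc20, which activates that complex, stood at 8.19 CPM in KO-DOX, 6.81 in KO-CTRL, 4.97 in WT-DOX and 5.88 in WT-CTRL. Both had their highest level in KO-DOX, with KO folds of 0.19 and 0.23 for doxorubicin against control, under the size of 0.32.

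Of the kinesins, Kif11, which pushes the spindle poles apart, stood at 32.9 CPM in KO-DOX, 35.01 in KO-CTRL, 18.5 in WT-DOX and 30.7 in WT-CTRL, a WT fold of -0.70. Kif20a (-0.60) and Kif4 (-0.36), motors of the central spindle, were also lower in WT-DOX by more than the size, and Kif23 (-0.16) by less. Kif2c, which depolymerises microtubules and was under the minimum level, stood at 5.67 CPM in KO-DOX, 5.38 in KO-CTRL, 2.59 in WT-DOX and 4.93 in WT-CTRL. All 6 spindle genes, Tpx2, Hmmr, Nusap1, Tacc3, Prc1 and Ckap2l, were lower in WT-DOX by that size, with folds of -0.63 to -0.44, and all 6 were higher in KO-DOX than in WT-DOX, at 0.65 to 0.90. Tpx2, which activates Aurora A on the spindle, stood at 37.4 CPM in KO-DOX, 33.4 in KO-CTRL, 19.6 in WT-DOX and 30.1 in WT-CTRL.

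The cytokinesis genes differed among themselves. Ect2, the exchange factor that sets the cleavage furrow, stood at 13.3 CPM in KO-DOX, 12.4 in KO-CTRL, 6.92 in WT-DOX and 12.0 in WT-CTRL, a WT fold of -0.72. Anln, the furrow scaffold anillin, had a WT fold of -0.50. Racgap1, which binds Ect2 at the central spindle, stood at 57.2 CPM in KO-DOX, 50.1 in KO-CTRL, 44.4 in WT-DOX and 44.1 in WT-CTRL, a WT fold of 0.01. Only 33.8% to 46.6% of Racgap1 UMIs lay in Mki67-positive cells, against 92.1% in KO-DOX, 92.1% in KO-CTRL, 84.8% in WT-DOX and 90.6% in WT-CTRL for the median member. Its remaining UMIs came to 33.1 CPM in KO-DOX, 26.9 in KO-CTRL, 29.4 in WT-DOX and 23.5 in WT-CTRL, so that part was higher in WT-DOX than in WT-CTRL while the part from Mki67-positive cells was lower, at 15.0 against 20.6 CPM.

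Hmgb2, Smc4 and Mki67 had the highest levels of the members in WT-CTRL. Mki67 stood at 81.1 CPM in KO-DOX, 80.6 in KO-CTRL, 45.0 in WT-DOX and 74.98 in WT-CTRL. Hmgb2, a chromatin protein that bends DNA, stood at 632.5 CPM in KO-DOX, 614 in KO-CTRL, 417 in WT-DOX and 581 in WT-CTRL, and 58.0% to 68.5% of its UMIs lay in Mki67-positive cells. Smc4, a core condensin subunit, stood at 395 CPM in KO-DOX, 407 in KO-CTRL, 381 in WT-DOX and 419 in WT-CTRL. Between 11.3% and 16.9% of its UMIs lay in Mki67-positive cells, the lowest share of any member, and its WT fold was -0.14. The condensin genes Smc2 and Ncapd2 had WT folds of -0.23 and -0.31, and that of Hmgb2 was -0.48. Ncapd2 had 58.5% to 71.9% of its UMIs in Mki67-positive cells, a share close to that of Hmgb2.

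By their level outside Mki67-positive cells, 26 of the 35 genes other than Mki67 were restricted, each under 5 CPM in Mki67-negative cells of every library, and 9 were broad (Cenpa, Kif23, Cks1b, Cks2, Hmgb2, Smc4, Smc2, Ncapd2 and Racgap1). The median restricted gene had 94.1% of its UMIs in Mki67-positive cells in KO-DOX, 94.3% in KO-CTRL, 91.3% in WT-DOX and 93.1% in WT-CTRL. These shares follow in part from the cut, which is on CPM and so also sorts genes by level. Aurka, restricted, had 60.3% to 73.6% of its UMIs there, and Cks1b, broad, had 71.8% to 78.0%. Summed over the restricted genes the level was 566 CPM in KO-DOX, 538 in KO-CTRL, 337 in WT-DOX and 483 in WT-CTRL. Within Mki67-positive cells the same sum was 3808 CPM in KO-DOX, 3809 in KO-CTRL, 3688 in WT-DOX and 3828 in WT-CTRL. The 4 libraries thus lay close together in a measure that sets aside both cell number and depth per cell.

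As CPM summed over Mki67-positive cells, the members were at nearly the same level in all libraries. Counted per cell they were not. The median Mki67-positive cell held 54 UMIs of the other members in KO-DOX, 78.5 in KO-CTRL, 87 in WT-DOX and 44 in WT-CTRL. The median depths of these cells differed as well. The 35 other members summed to 8769 CPM in KO-DOX, 8876 in KO-CTRL, 8585 in WT-DOX and 8996 in WT-CTRL. Of 31 members at 50 CPM or more, 1 was higher and 2 were lower in WT-DOX than in WT-CTRL by 0.32 log2 units, where 3.06% of genes were higher and 5.65% lower, and the median was -0.10. KO-DOX against KO-CTRL gave 0 of 33 in either direction (0.989% of genes higher, 1.26% lower), with a median of -0.02, and KO-CTRL against WT-CTRL gave 0 of 33 (1.64% higher, 2.18% lower), with a median of -0.00. KO-DOX against WT-DOX gave 3 higher of 31 (3.30% of genes) and 0 lower (2.90%), with a median of 0.05. The 3 were Bub1b (0.42), Tacc3 (0.34) and Ect2 (0.34). The exceptions in WT were Cdk1, at 92.1 CPM in KO-DOX, 93.0 in KO-CTRL, 111 in WT-DOX and 85.2 in WT-CTRL, and Ect2 and Cenpe below. Ect2 stood at 78.6 CPM in KO-DOX, 78.3 in KO-CTRL, 62.0 in WT-DOX and 85.2 in WT-CTRL. Cenpe stood at 181 CPM in KO-DOX, 176 in KO-CTRL, 148 in WT-DOX and 193 in WT-CTRL. In all 3 genes WT-DOX was the library that stood apart.

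**Figure D4:**
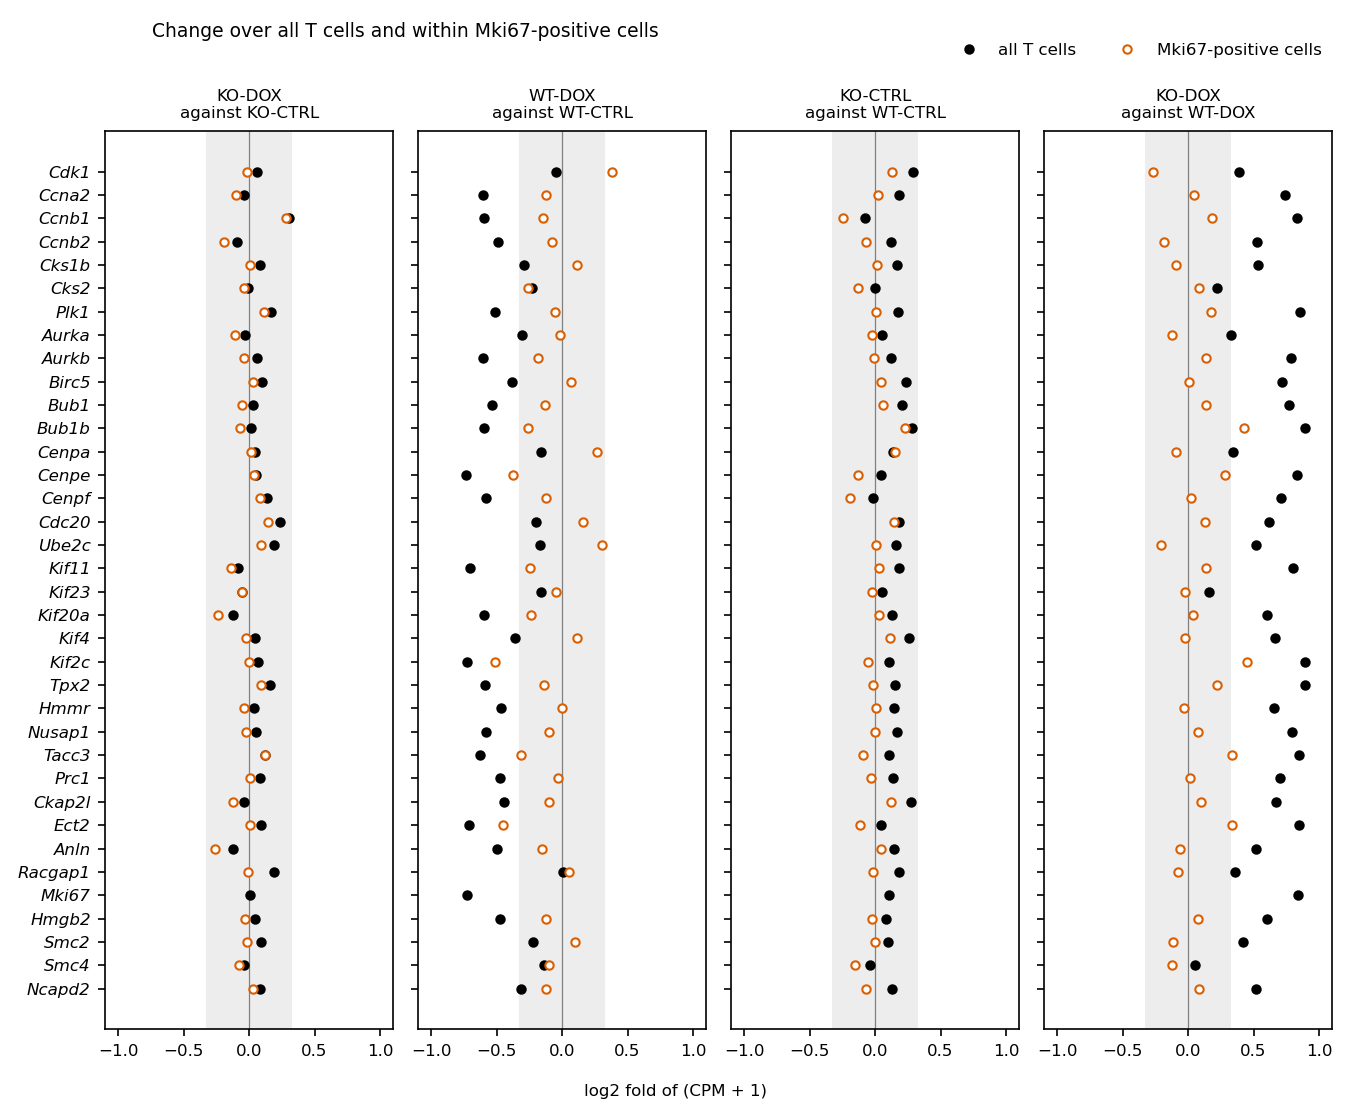
Log2 fold of CPM plus 1 (x axis) for each gene (y axis) in the 4 comparisons (panels), over all T cells (filled) and within Mki67-positive cells (open, without Mki67), genes under the minimum level included. The filled points are displaced from 0 in the comparisons with WT-DOX, with medians of -0.48 and 0.66, while most open points lie inside the grey band of 0.32 log2 units.

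The change in the part of a gene's level that comes from Mki67-positive cells can be written as a sum of 3 log2 terms: the share of such cells, their depth relative to all T cells, and the gene's level within them. For WT-DOX against WT-CTRL the terms were -0.67 for the share, 0.17 for the depth and a median of -0.10 for the level. For KO-DOX against KO-CTRL they were 0.27, -0.20 and -0.02, so that share and depth ran against each other. KO-CTRL against WT-CTRL gave 0.01, 0.18 and -0.00, and KO-DOX against WT-DOX gave 0.95, -0.19 and 0.05. Mki67-positive cells had median depths of 9020 UMIs in KO-DOX, 11030 in KO-CTRL, 11587 in WT-DOX and 9394 in WT-CTRL. In summed CPM over the 35 genes, 89.4% of the difference of WT-DOX from WT-CTRL and 96.6% of that of KO-DOX from WT-DOX lay in Mki67-positive cells.

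The difference between the genotypes' responses was written as the KO fold minus the WT fold. Its median over 35 members was 0.49 in all T cells, with 27 at 0.32 or more (4.44% of genes) and 0 at -0.32 or less (1.48%). For 24 of the 35 the level was above control in KO and below it in WT, as it was for 26.3% of genes. Within Mki67-positive cells the median was 0.03 over 31 members, with 4 at 0.32 or more (7.50% of genes) and 1 at -0.32 or less (4.84%). Cells with transcripts of Cd4 only or of Cd8a or Cd8b1 only, described next, had medians of opposite sign. Among Cd4-only Mki67-positive cells the median was 0.34 over 33 members, with 17 at 0.32 or more (13.5%) and 0 at -0.32 or less (12.0%). Among Cd8-only ones it was -0.11 over 31 members, with 3 at 0.32 or more (21.1%) and 8 at -0.32 or less (11.9%). The difference over all T cells was not tested, since each response rests on 2 libraries.

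CD4 and CD8 T cells, taken as cells with transcripts of Cd4 only or of Cd8a or Cd8b1 only, had different Mki67-positive shares. Among Cd8-only cells the share was 3.27% in KO-DOX (151 of 4615), 2.38% in KO-CTRL (130 of 5470), 1.54% in WT-DOX (89 of 5772) and 2.85% in WT-CTRL (160 of 5621). Among Cd4-only cells it was 6.75% in KO-DOX (118 of 1749), 6.02% in KO-CTRL (145 of 2410), 4.51% in WT-DOX (81 of 1795) and 5.06% in WT-CTRL (109 of 2155). WT-DOX held 0.542 times the Cd8-only share of WT-CTRL (0.419 to 0.700) and 0.892 times the Cd4-only share (0.674 to 1.18). At 2 or more Mki67 UMIs the Cd8-only ratio was 0.558 (0.406 to 0.767), while the Cd4-only share was 3.12% in WT-DOX against 2.97% in WT-CTRL, a ratio of 1.05 (0.738 to 1.495), so the direction in Cd4-only cells turned. The Cd8 ratio was 0.607 times the Cd4 ratio (0.415 to 0.888). Counted instead as cells with 3 or more UMIs of the restricted genes, it was 0.809 times (0.534 to 1.23), and counted as cells with Top2a it was 0.815 times (0.624 to 1.07), intervals that include 1. For KO-CTRL against WT-CTRL it was 0.702 times by Mki67 (0.503 to 0.979), 0.793 by the restricted genes (0.548 to 1.15) and 0.9749 by Top2a (0.764 to 1.24). KO-DOX held 1.38 times the Cd8-only share of KO-CTRL (1.09 to 1.73) and 1.12 times the Cd4-only share (0.886 to 1.42).

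The members' levels were counted in both kinds of cell. In Cd8-only cells 22 of 33 members were lower in WT-DOX than in WT-CTRL by 0.32 log2 units (4.71% of genes), with a median of -0.56, and 0 were higher (0.925%). Kif11 had the lowest fold there, at -1.15, and Mki67 stood at 62.8 CPM in KO-DOX, 60.6 in KO-CTRL, 27.3 in WT-DOX and 59.3 in WT-CTRL. In Cd4-only cells 9 of 36 were lower (5.24% of genes) and 0 higher (4.82%), with a median of -0.15, and Mki67 stood at 170 CPM in KO-DOX, 145 in KO-CTRL, 119 in WT-DOX and 132 in WT-CTRL. KO-DOX against KO-CTRL gave 0 of 35 higher (1.17%) or lower (1.80%) in Cd8-only cells, with a median of 0.02, and 11 of 36 higher (5.20%) and 0 lower (2.93%) in Cd4-only cells, with a median of 0.21. In the Cd4-only cells the anaphase genes had the highest median of the 8 roles there, at 0.63. Cdc20 stood at 15.0 CPM in KO-DOX, 8.91 in KO-CTRL, 7.52 in WT-DOX and 8.48 in WT-CTRL, and Ube2c at 125 CPM in KO-DOX, 84.2 in KO-CTRL, 71.6 in WT-DOX and 73.0 in WT-CTRL. Both were highest in KO-DOX, and the other 3 libraries lay closer together. KO-DOX against WT-DOX gave 30 of 36 higher in Cd4-only cells (7.98% of genes) and 0 lower (5.37%). In Cd8-only cells it gave 28 of 34 higher (4.45%) and 0 lower (1.78%). KO-CTRL against WT-CTRL gave 7 of 36 higher (4.10%) and 1 lower (3.23%), Ccnb1, in Cd4-only cells, and 1 of 35 higher (1.81%) and 0 lower (1.46%) in Cd8-only cells.

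The counts within Mki67-positive cells also differed between the 2 kinds of cell. Among Cd4-only ones 14 of 34 members were higher in KO-DOX than in KO-CTRL (7.02% of genes) and 0 lower (4.40%), with a median of 0.24. Ube2c stood there at 560 CPM in KO-DOX, 378 in KO-CTRL, 408 in WT-DOX and 393 in WT-CTRL, and Cenpf at 279.7 CPM in KO-DOX, 191 in KO-CTRL, 193 in WT-DOX and 220.4 in WT-CTRL. KO-DOX was the library that stood apart in both. Among Cd8-only ones the same comparison gave 0 of 32 higher (2.90%) and 1 lower (3.06%), with a median of -0.14. Against WT-DOX, KO-DOX had 16 of 34 higher (7.71%) and 0 lower (10%) among Cd4-only ones, and 1 of 31 higher (19.0%) and 9 lower (9.11%) among Cd8-only ones. There Ube2c stood at 410 CPM in KO-DOX, 463 in KO-CTRL, 714 in WT-DOX and 505 in WT-CTRL, so that WT-DOX was the highest library. WT-DOX against WT-CTRL gave 1 of 33 higher (10.8%) and 4 lower (9.85%) among Cd4-only ones, and 5 of 32 higher (8.75%) and 4 lower (17.6%) among Cd8-only ones. KO-CTRL against WT-CTRL gave 0 of 33 higher (5%) and 1 lower (6.35%) among Cd4-only ones, and 0 of 34 higher (5.61%) and 3 lower (5.93%) among Cd8-only ones. The small number of cells behind these levels is not covered by their counting intervals.

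The balance of G2 and M phase to S phase transcripts was close in all libraries over all Mki67-positive cells. The 35 members held 1.74 UMIs per UMI of 30 S phase genes in KO-DOX, 1.72 in KO-CTRL, 1.71 in WT-DOX and 1.82 in WT-CTRL. The 10 late mitotic members, among them Plk1, Cdc20 and Ccnb1, made up 14.6%, 14.1%, 14.5% and 14.1% of member UMIs in that order. Among Cd4-only Mki67-positive cells the ratio was 2.02 in KO-DOX, 1.68 in KO-CTRL, 1.43 in WT-DOX and 1.74 in WT-CTRL, and among Cd8-only ones 1.68 in KO-DOX, 1.81 in KO-CTRL, 2.26 in WT-DOX and 1.98 in WT-CTRL. KO-DOX held the highest and WT-DOX the lowest value among Cd4-only cells, and the opposite held among Cd8-only cells, with 81 to 145 Cd4-only and 89 to 160 Cd8-only cells behind each value.

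Single Mki67-positive cells held the members unevenly. Hmgb2 had a UMI in 84.4% to 91.1% of them and Cdc20 in 24.0% to 33.5%. Across these cells, which share a library and differ in depth, each gene was correlated with the summed UMIs of the other restricted genes. The highest value was that of Birc5 in KO-DOX and WT-CTRL (Pearson r 0.79 to 0.83 over the libraries). In KO-CTRL and WT-DOX it was that of Hmgb2 (0.76 to 0.82 over the libraries). The lowest value was that of Smc4 in KO-DOX and WT-CTRL (0.37 to 0.54 over the libraries). In KO-CTRL it was that of Kif2c (0.480) and in WT-DOX that of Cdc20 (0.484). Cells without any UMI of the late mitotic members were 30.8% in KO-DOX, 25.5% in KO-CTRL, 26.6% in WT-DOX and 33.0% in WT-CTRL of Mki67-positive cells.

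Further genes of the cell cycle were counted from lists. Of 60 further G2 and M phase genes, 42 were at 5 CPM in WT-DOX against WT-CTRL. There 25 were lower (3.46% of all genes) and 0 higher (0.676%) by 0.32 log2 units, and the median was -0.38. Cep55, of the last step of cell separation, stood at 5.81 CPM in WT-DOX against 10.2 in WT-CTRL, and Ncapg, a condensin subunit, at 5.05 against 8.48. Pttg1, securin, was the highest of them, at 49.5 CPM in WT-DOX against 43.5 in WT-CTRL. KO-DOX against KO-CTRL had 0 of 46 in either direction (0.786% of all genes higher, 0.985% lower). KO-CTRL against WT-CTRL had 1 higher of 45 (1.49% of all genes), Ncapg2. KO-DOX against WT-DOX had 31 of 42 higher (4.29% of all genes), with a median of 0.49. Of the S phase genes, 2 of 29 were lower in WT-DOX than in WT-CTRL (3.46% of all genes), with a median of -0.16. In KO-DOX 16 of 30 were higher than in WT-DOX (4.29% of all genes), with a median of 0.33. Of 15 brake and G1 genes at that level, 2 were higher (0.676% of all genes) and 1 lower (3.46%) in WT-DOX than in WT-CTRL. Ccnd3, cyclin D3, stood at 296 CPM in WT-DOX against 219 in WT-CTRL, Cdkn1a, the p53-induced inhibitor p21, at 15.5 against 11.3 CPM, and Ccne2, cyclin E2, at 6.03 against 9.54 CPM. In KO-DOX against KO-CTRL none of 15 passed the size (0.786% of all genes higher, 0.985% lower), and Cdkn1a stood at 13.4 against 11.3 CPM.

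Likeness was ranked by the lowest of 4 library ratios of a gene's CPM in Mki67-positive cells to its CPM in the other T cells. The ranking held 3060 genes with at least 50 CPM in Mki67-positive cells of every library. Bub1b, Cdc20, Kif20a, Kif2c and Anln fell under that level. The 10 non-members highest by this measure were the histone genes Hist1h3c, Hist1h1b, Hist1h3b, Hist1h2ab and Hist1h2ae, with Nuf2, Esco2, Depdc1a, Pclaf and Cdca3. Of 30 ranked members other than Mki67, which defines the cells, 18 stood among the first 50 genes and 24 among the first 100. The minimum level and the ratio both rest on Mki67-positive cells, so these ranks describe the list and are no separate support for it. Hmmr, Ccna2 and Cenpf led the members, with lowest ratios of 197, 185 and 178, and Smc4 came last at rank 1296.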

How the data were processed

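Live T cells from draining lymph nodes were measured as 4 single-cell libraries with a SeekOne DD 5' kit, per the labels' protocols. The deposited values are counts of UMIs per gene and barcode, not normalized. The submitters' processing notes name the build mm10; the sources used here do not give the aligner, its settings or the cell caller.

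Barcodes under 300 genes or over 10% mitochondrial UMIs were dropped, and cells with a Scrublet score above 0.25 (scanpy 1.11.5) were removed, because the automatic threshold marked 0 cells. T cells had at least 1 UMI of Cd3d, Cd3e, Cd3g, Trac, Trbc1 or Trbc2, and under 2 UMIs each of a B cell set (among them Cd79a, Cd79b, Ms4a1 and Jchain) and a myeloid set (Lyz2, Csf1r, C1qa, Siglech). Of Mki67-positive barcodes, 3 to 7 a library were removed as doublets and 25 to 40 by these marker limits, and some doublets may remain. No clustering was used, since clusters would rest on the members themselves.

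UMIs were summed per library and cell set and divided by the set's total to give CPM, with exact Poisson 95% intervals. Log2 folds are of CPM plus a pseudocount of 1, over genes with a mean of at least 5 CPM in the pair of libraries (50 CPM in Mki67-positive cells), and members were counted from 0.32 log2 units. Shares have Clopper-Pearson intervals, and their ratios a log interval from the same counts. Cells were thinned to 1500 or 2500 UMIs. With 1 library a group no p was computed. The calculations were tested on simulated data. Promoters are RefSeq's, on GRCm38.p6.

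All 36 members were named. Of the other G2 and M phase and brake lists the genes were named from the 3 highest and lowest folds in T cells, except where a count of 1 called for the gene. The members and lists were chosen with earlier results of these data known. Alternatives changed the cell filter, marker rule, doublet step, pseudocount, weight of cells, scaling and the definition of cycling cells.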

Additional observations from a re-analysis of the deposited data

Results flagged for a closer look

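The Mki67-positive share differed between DOX and CTRL in opposite directions in the 2 genotypes. The ratio of KO-DOX to KO-CTRL was 1.92 times the ratio of WT-DOX to WT-CTRL in T cells (95% counting interval 1.55 to 2.37) and 2.54 times in Cd8-only cells (1.80 to 3.59). The members' log2 response was higher in KO than in WT by a median of 0.49 over all T cells. At 2 or more Mki67 UMIs the KO ratio was 1.07 and at 5 or more 1.003, and by Top2a it was 1.06, all with intervals that include 1. The KO ratio was then 1.48 times the WT ratio at 2 or more UMIs (1.14 to 1.94) and 1.37 times by Top2a (1.17 to 1.59). Each response rests on 2 libraries, so the difference between genotypes was not tested against the spread between mice.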

How the results depend on the processing

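No paired analysis was possible because each group is 1 library and no replicate could be left out. Of 196 recomputed values, 185 stayed within limits set around the main value, 10 moved beyond them and 1 reversed. A median near 0 could change sign within those limits. In Mki67-positive cells that for KO-DOX against KO-CTRL ran from -0.12 to 0.03. When each cell had the same weight, 12 of 21 members were lower in WT-DOX than in WT-CTRL (2.69% of all genes), 13 of 19 were higher in KO-DOX than in WT-DOX (3.60%), and the median for KO-CTRL against WT-CTRL was -0.0030. That median, 0.14 in the main setting, was the 1 value that reversed. With Top2a as the mark of cycling cells the share ratio was 0.777 for WT-DOX against WT-CTRL, 1.06 for KO-DOX against KO-CTRL and 1.32 for KO-DOX against WT-DOX, and the median in those cells was 0.28 for KO-DOX against WT-DOX. Top2a UMIs were also found in 2.78% to 4.23% of resting naive cells. Cells with 3 or more UMIs of restricted genes, a choice made after seeing the data, gave 0.767 for WT-DOX against WT-CTRL. A pseudocount of 0.1 gave 1 of 36 members higher in KO-DOX than in KO-CTRL (0.963% of genes). For KO-CTRL against WT-CTRL, 9 of 36 members were higher without the marker rule (1.83% of genes) and 5 of 36 with a rule scaled to depth (1.58%), also chosen after seeing the data, and the share ratio was 1.18 at 2 or more Mki67 UMIs. The causes were not tested. Depth limits the Mki67-positive sets, which hold 237 to 400 cells.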
